A study of Mus musculus with 9 samples.

Results

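Chromosome 13 of the mouse carries, between 62000000 and 76000000 on GRCm38, a 14 Mb stretch of zinc finger genes and ordinary cellular genes in which differences between libraries had been seen to cluster. Its members were the genes of the deposited table that start in this interval, by their lower coordinate, and reach an FPKM of at least 1 in 3 or more of the 9 libraries (FPKM, fragments scaled to transcript length and library depth). That left 58 genes of 12507 tested by the same FPKM filter and 32593 listed. The members were thus chosen by their position and FPKM. The interval held 255 listed genes, of which 67 passed the filter and 9 of these were left out by name. Those left out were Fbp1, Fbp2, Ctsl, Slc9a3, Slc6a18, Slc6a19, Sdha, Ndufs6 and the zinc finger gene Zfp429. They stayed among the genes tested, but their results are not given here and no count of members covers them. The interval was drawn with the differences between the libraries known, so counts of differences within it describe it and support nothing on their own.

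The libraries were made from kidney RNA of mice given AngII, the vasoconstrictor peptide angiotensin II, in a study of hypertension-associated kidney disease. The AngII group had the genotype Tmem fl/fl, a floxed allele without Cre. The CDH16KO-AngII group had CDH16 Cre+/Tmem fl/fl, in which Cre is driven by Cdh16, a cadherin gene of kidney tubule epithelium, so other kidney cells keep the floxed gene. The GRPR-AngII group had CDH16 Cre+/GRPR fl/fl, the same Cre with another floxed allele. Each group had 3 libraries, every group received AngII, and the labels name neither a strain nor an age. Groups without AngII or with floxed GRPR and no Cre are not analysed here. Separate animals are not stated in the labels, and p-values therefore measure only a spread among these libraries, which may be technical.

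Library totals were 40731748 to 60449117 counts. Summed proximal tubule markers stood at 26729 to 51232 CPM in the 9 libraries (CPM, counts per 1000000 after TMM scaling), as a kidney label requires, and adipocyte markers at 0 to 0.0851 CPM. Erythroid markers summed to 51.9 CPM in AngII library 1 and 84.6 CPM in GRPR-AngII library 1, against 322 to 1145 CPM in the other libraries. Liver markers summed to 128 to 280 CPM in CDH16KO-AngII, above the 69.5 to 111 CPM of AngII without overlap, and to 81.7 to 242 CPM in GRPR-AngII. Most of that sum was Ttr, at 60.9 to 274 CPM over the 9 libraries. Alb was at 3.72 to 10.2 CPM and Apoa1 at 0.41 to 3.45 CPM. Immune markers summed to 91.0 to 103 CPM in GRPR-AngII, above the 56.8 to 90.4 CPM of AngII without overlap, and to 56.3 to 118 CPM in CDH16KO-AngII. The part of these markers in the results on the segment was not tested. Sting1, the gene formerly called Tmem173 and taken here for Tmem, was at 4.62, 1.77 and 5.33 CPM in AngII, 2.15, 2.24 and 2.04 CPM in CDH16KO-AngII and 2.90, 2.90 and 2.68 CPM in GRPR-AngII. The values of both Cre-positive groups lay within the AngII range, and those of CDH16KO-AngII lay below those of GRPR-AngII. In whole kidney RNA, fewer cells of a type and less RNA per cell cannot be told apart.

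Many of the zinc finger genes in the interval are of the KRAB type. Their proteins bind DNA through arrays of zinc fingers and silence transposable elements and neighbouring genes through the co-repressor Trim28. Such genes lie in clusters of near copies that change quickly in evolution and are known to differ between inbred mouse strains. One cluster in the interval is known as the regulator of sex-limitation region, from its control of sex-biased liver genes, and 6 of the zinc finger genes measured here carry an Rslcan synonym in RefSeq. The other genes of the stretch serve unrelated tasks, among them DNA repair, steroid and phospholipid synthesis, respiration and RNA modification.

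Several of the zinc finger genes hold like sequence at their start sites. These stretches lie largely before the start, so they do not show whether reads of one gene could be counted for another. Among all 12-base sequences with base 6 left free, GGGAANTGTAGT was held by the most zinc finger members in their RefSeq promoter windows (250 bases before to 50 after a start, GRCm38.p6). It was tied with 2 others and taken as the commonest of the 3 over all genes, then searched for on both strands. The 40 bases around it are shown for the 6 zinc finger genes that hold it, with the element in capitals and each written 5′ to 3′ on the strand of its gene.
Zfp708: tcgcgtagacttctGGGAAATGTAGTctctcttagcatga
Zfp85: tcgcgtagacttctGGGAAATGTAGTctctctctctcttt
Zfp273: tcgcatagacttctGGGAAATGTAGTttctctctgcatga
Zfp874a: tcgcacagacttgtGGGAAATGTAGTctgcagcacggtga
Zfp874b: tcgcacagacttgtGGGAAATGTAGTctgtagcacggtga
Zfp58: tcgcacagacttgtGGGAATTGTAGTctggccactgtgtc
These stretches lie at chr13:67081572-67081611 (Zfp708), chr13:67755193-67755232 (Zfp85), chr13:67813735-67813774 (Zfp273), chr13:67451632-67451671 (Zfp874a), chr13:67484263-67484302 (Zfp874b) and chr13:67500528-67500567 (Zfp58). Zfp273 is on the plus strand and the others on the minus strand. Zfp874a and Zfp874b keep nearly the same letters on both sides of the element, and Zfp708 and Zfp85 share the whole stretch before it.

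The element, chosen on these windows, was found in 6 of 9 segment zinc finger genes with a RefSeq window (66.7%) and in 0 of the other 28 segment genes with one. Over all 27025 genes with a window it was found in 294 (1.09%), and over 306 zinc finger genes outside chromosome 13 in 32 (10.5%). Its letters are close to those of the recognition element known for ZNF143, and no binding was measured here. A match describes a sequence and is not a site. Members with a promoter window numbered 37 of 58, with 48 windows, and 56.3% of these windows held a GC box against 35.7% of all windows. All windows include those of genes that did not pass the FPKM filter, so nothing on the segment is read from this contrast.

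Of the 58 members, those that passed the test between CDH16KO-AngII and the other groups were a non-coding and a predicted gene. No zinc finger gene was among these members, which do not include Zfp429. 1810034E14Rik, a long non-coding RNA gene, was 3.43-fold lower in CDH16KO-AngII than in AngII, and Gm47469, a predicted gene, was 7.87-fold higher. The zinc finger gene Zfp708 was at or near 0 counts in all CDH16KO-AngII libraries, but also in 1 AngII and 1 GRPR-AngII library, and was not called (edgeR adjusted p = 0.289 against AngII). The edgeR quasi-likelihood test, adjusted by the Benjamini-Hochberg method over all 12507 genes at a threshold of 0.05, called these 2 of the 58 genes, 1 higher and 1 lower, where it called 0.168% of all genes tested (0.104% higher and 0.064% lower). Since the interval was drawn with these differences known, nothing is read from that contrast. In the plot of log2 fold changes by position these 2 genes lie far from each other along the stretch, with genes that were not called between them.

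**Figure D1:**
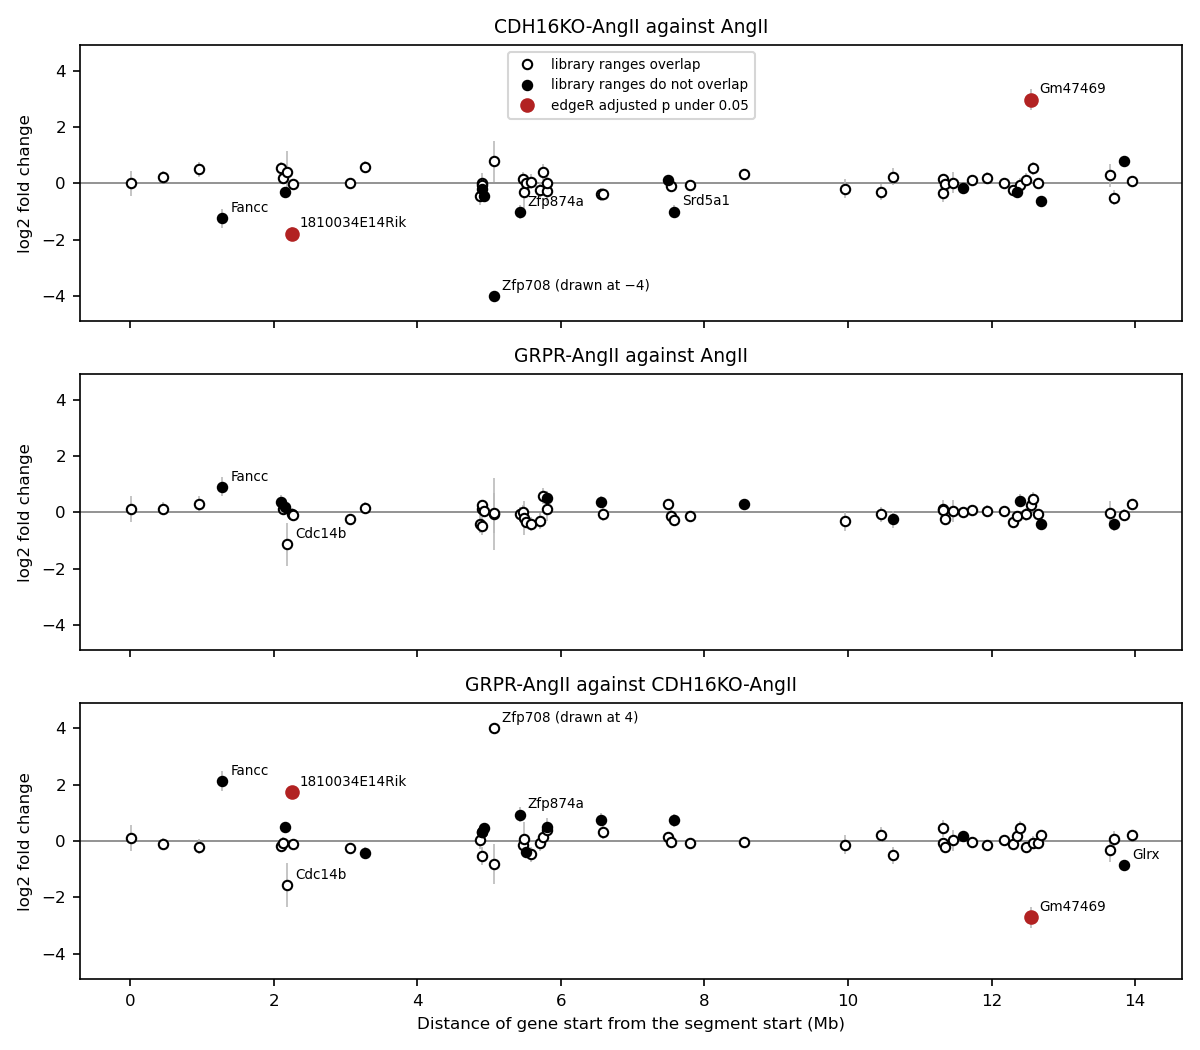
Log2 fold change of the 58 segment genes (vertical axis, bars: standard error) by distance of the gene start from the segment start in Mb (horizontal axis), in the 3 comparisons. Red points are 1810034E14Rik and Gm47469, called by edgeR in both comparisons with CDH16KO-AngII, and black points have library ranges that do not overlap. Zfp708 is drawn at the edge in both comparisons with CDH16KO-AngII, where libraries at or near 0 counts leave its fold change unbounded.

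1810034E14Rik starts at 64248700 on chromosome 13, plus strand, and lies within the span of Cdc14b on the other strand (ENSMUSG00000097101, 64248700 to 64271852). Its CPM was 12.3, 12.6 and 9.88 in the AngII libraries, 2.63, 3.30 and 4.21 in CDH16KO-AngII and 10.3, 10.2 and 13.2 in GRPR-AngII. All CDH16KO-AngII libraries lay below all 6 others, and AngII and GRPR-AngII overlapped. The log2 fold change was −1.78 in CDH16KO-AngII against AngII (SE 0.22, edgeR adjusted p = 0.0182), and GRPR-AngII exceeded CDH16KO-AngII by 1.73 (SE 0.22, edgeR adjusted p = 0.0194). In GRPR-AngII against AngII it was −0.05 (SE 0.22, edgeR adjusted p = 0.968). No transcript of another gene matched it at 95% identity, and no exon of another gene overlapped its exons in GENCODE M21. The call against AngII was lost without AngII library 1 (edgeR adjusted p = 0.102) or AngII library 2 (edgeR adjusted p = 0.0814), with the direction kept.

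The start of 1810034E14Rik faces the start of a shorter Cdc14b transcript, 162 bases away. The 300 bases around that pair of starts, chr13:64248450-64248749 on the plus strand of GRCm38.p6, are printed because both genes stepped between libraries. Capitals mark the 163 bases from the Cdc14b start to that of 1810034E14Rik, both included.
1810034E14Rik and Cdc14b: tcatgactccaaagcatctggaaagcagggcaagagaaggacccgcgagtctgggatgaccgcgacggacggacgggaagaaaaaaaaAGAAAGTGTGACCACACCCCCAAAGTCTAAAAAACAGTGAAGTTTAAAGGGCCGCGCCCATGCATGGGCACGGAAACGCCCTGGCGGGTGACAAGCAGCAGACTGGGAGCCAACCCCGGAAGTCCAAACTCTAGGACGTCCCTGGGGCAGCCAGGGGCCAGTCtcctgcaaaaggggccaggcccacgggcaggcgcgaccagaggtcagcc

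Cdc14b, a phosphatase of the family that acts late in mitosis, did not follow its neighbour. Its CPM was 16.9, 4.04 and 13.03 in AngII, 22.6, 19.2 and 3.47 in CDH16KO-AngII and 1.85, 3.22 and 10.5 in GRPR-AngII. The 4 low libraries (AngII 2, CDH16KO-AngII 3, GRPR-AngII 1 and GRPR-AngII 2) came from all 3 groups, and every pair of groups overlapped. The log2 fold change was 0.42 (SE 0.75) in CDH16KO-AngII and −1.13 (SE 0.77) in GRPR-AngII against AngII, and −1.55 (SE 0.77) between the Cre-positive groups (edgeR adjusted p from 0.765 to 0.869). The main Cdc14b start lies 26288 bases from that of 1810034E14Rik, and the deposited table gives 1 value for all Cdc14b transcripts.

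Gm47469 (ENSMUSG00000113047, 74553910 to 74564256, minus strand) was the reverse case. Its CPM was 0.624, 0.602 and 0.251 in AngII, 3.01, 3.85 and 4.92 in CDH16KO-AngII and 0.563, 0.579 and 0.652 in GRPR-AngII. All CDH16KO-AngII libraries lay above all 6 others. The log2 fold change was 2.98 in CDH16KO-AngII against AngII (SE 0.38, edgeR adjusted p = 0.0182), and that of GRPR-AngII against CDH16KO-AngII was −2.71 (SE 0.38, edgeR adjusted p = 0.0227). Gm47469 passed the FPKM filter through its 3 CDH16KO-AngII libraries alone, so a gene of this pattern had to differ to be counted. It shared 48.4% of its transcript at 95% identity with the neighbouring zinc finger gene Zfp825, whose CPM was 5.92 to 10.1 over the 9 libraries with overlapping groups. Reads of the shared stretch cannot be assigned with certainty. Leaving out AngII library 1, AngII library 2 or CDH16KO-AngII library 3 ended the call against AngII (edgeR adjusted p = 0.102, 0.0814 and 0.0706).

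**Figure D2:**
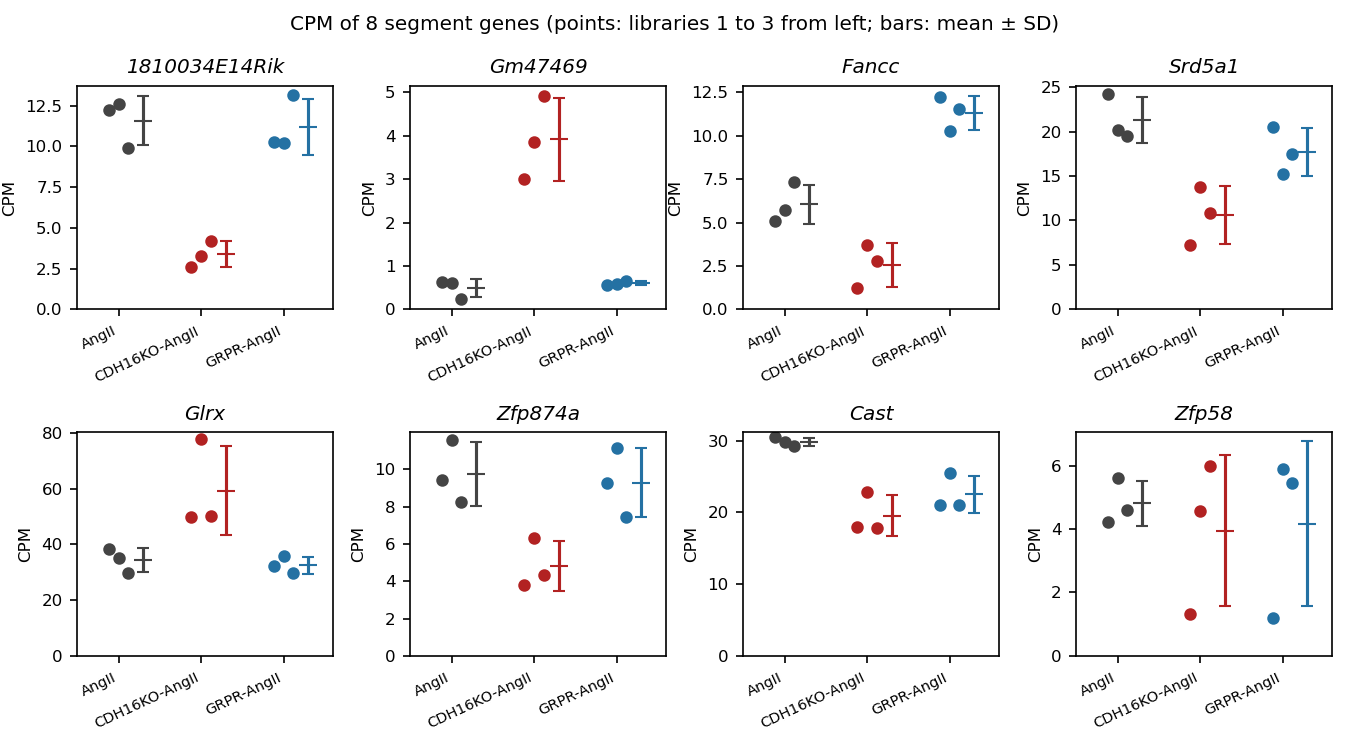
CPM (vertical axis, from 0) of 8 segment genes in the AngII, CDH16KO-AngII and GRPR-AngII libraries. Points are libraries 1 to 3 from the left, and the bar beside them is the mean ± SD of 3 libraries; CDH16KO-AngII is apart from both other groups for 1810034E14Rik, Gm47469, Fancc, Srd5a1, Glrx and Zfp874a, while in Zfp58 CDH16KO-AngII library 1 and GRPR-AngII library 1 are low.

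The called genes included, 14 of the 58 (24.1%) had CDH16KO-AngII and AngII libraries that did not overlap, 3 of them higher and 11 lower in CDH16KO-AngII. Over all genes the share was 12.2% (6.65% higher and 5.5% lower), over the other 392 chromosome 13 genes 20.9%, over the 90 genes of the 14 Mb before the segment 18.9%, over the 14 genes of the 14 Mb after it 35.7%, and over the 12048 genes of other chromosomes 11.8%. Of the 14, 6 had a log2 fold change smaller than 0.5 in size. The median log2 fold change of the 58 genes was 0.00, with 30 positive and 28 negative, and its median size was 0.25 against 0.18 over all genes. An unadjusted p under 0.05 was found for 11 of the 58 (18.97%), where 8.45% of all genes had one by edgeR, as did 16.8% of the other chromosome 13 genes, 12.2% of those before the segment and 21.4% of those after it. Both shares were higher over the genes after the segment than within it.

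The DNA repair and cell cycle genes included the member with the widest separation of all 3 groups. Fancc, a subunit of the Fanconi anaemia core complex that acts in the repair of DNA crosslinks, stood at 5.11, 5.72 and 7.31 CPM in AngII, 1.22, 3.69 and 2.79 CPM in CDH16KO-AngII and 12.2, 10.3 and 11.5 CPM in GRPR-AngII. No pair of groups overlapped, with CDH16KO-AngII lowest and GRPR-AngII highest. The log2 fold change was −1.23 in CDH16KO-AngII (SE 0.34, edgeR adjusted p = 0.286) and 0.91 in GRPR-AngII (SE 0.34, edgeR adjusted p = 0.732) against AngII, and 2.14 between them (SE 0.35, edgeR adjusted p = 0.0555). None of these passed the threshold. Fancc passed the FPKM filter only through its 3 GRPR-AngII libraries, and an antisense gene, Gm16133, overlaps 16.4% of its exon bases. Use of strand in counting was not given in the sources used here, so reads of the antisense gene cannot be told apart.

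Cdc14b, described above, belongs to the same list. Of its other genes, Clptm1l, a membrane protein gene beside the telomerase gene, was at 73.6, 75.6 and 65.4 CPM in CDH16KO-AngII, below the 76.6 to 82.6 CPM of AngII without overlap (log2 fold change −0.16). Brd9, a subunit of chromatin remodelling complexes, and Zfp367 had log2 fold changes of 0.21 and 0.18 in CDH16KO-AngII with overlapping libraries.

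Lipid and steroid enzymes were 3 members, and 2 of them were lower in every CDH16KO-AngII library than in any AngII or GRPR-AngII library. Srd5a1, the steroid 5-alpha-reductase that makes dihydrotestosterone, stood at 24.3, 20.1 and 19.5 CPM in AngII, 7.22, 13.8 and 10.9 CPM in CDH16KO-AngII and 20.5, 15.2 and 17.5 CPM in GRPR-AngII. Its log2 fold change was −1.003 in CDH16KO-AngII against AngII (SE 0.23, edgeR adjusted p = 0.174), and GRPR-AngII exceeded CDH16KO-AngII by 0.74 (SE 0.23, edgeR adjusted p = 0.437). Ptdss1, a phosphatidylserine synthase, stood at 38.0, 43.4 and 38.0 CPM in AngII, 28.9, 32.3 and 27.3 CPM in CDH16KO-AngII and 41.2, 42.6 and 39.7 CPM in GRPR-AngII. The difference was narrower, with a log2 fold change of −0.43 against AngII (SE 0.12, edgeR adjusted p = 0.281). Lpcat1, which acylates lysophosphatidylcholine, ranged from 2.38 to 6.32 CPM, both extremes lying in CDH16KO-AngII.

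Glrx, a glutaredoxin that reduces protein-glutathione disulfides, was the highest of the protein-coding members in CDH16KO-AngII relative to AngII by non-overlapping libraries. Its CPM was 38.4, 35.1 and 29.7 in AngII, 49.8, 77.8 and 50.2 in CDH16KO-AngII and 32.1, 35.8 and 29.7 in GRPR-AngII. The CDH16KO-AngII libraries lay above both other groups, library 2 furthest. The log2 fold change was 0.78 against AngII (SE 0.19, edgeR adjusted p = 0.204), and that of GRPR-AngII against CDH16KO-AngII was −0.86 (SE 0.19, edgeR adjusted p = 0.157). No other gene's transcript matched that of Glrx.

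Among the peptidases and their inhibitors, Cast was set apart from its neighbour Erap1. Cast, the calpain inhibitor calpastatin, stood at 30.4, 29.7 and 29.3 CPM in AngII, 17.9, 22.8 and 17.8 CPM in CDH16KO-AngII and 21.04, 25.4 and 21.03 CPM in GRPR-AngII. Both Cre-positive groups lay below AngII and overlapped each other, with log2 fold changes of −0.61 (SE 0.15, edgeR adjusted p = 0.211) and −0.41 (SE 0.15, edgeR adjusted p = 0.732). Erap1, which trims peptides for antigen presentation and overlaps Cast on the opposite strand over 11.5% of its own exon bases, ranged only from 17.4 to 22.3 CPM. Aopep, another aminopeptidase, ranged from 48.4 to 110 CPM with overlapping groups.

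The 4 mitochondrial genes had log2 fold changes of −0.38 to 0.17 in CDH16KO-AngII against AngII, and none was called. Uqcrb, a subunit of respiratory complex III and the member of highest level (mean 225 FPKM), stood at 203 to 217 CPM in CDH16KO-AngII and 228 to 258 CPM in AngII, without overlap. Mrpl36, of the mitochondrial ribosome, Mterf3, of mitochondrial transcription, and Fastkd3, of mitochondrial RNA processing, overlapped between these groups. Mtrr was listed with the RNA and translation genes, but it is a metabolic enzyme, the reductase that reactivates methionine synthase. Its CPM was 9.21, 11.2 and 10.3 in GRPR-AngII. AngII lay below these at 6.83 to 8.68 CPM, and so did CDH16KO-AngII at 4.66 to 7.81 CPM. Nsun2, an RNA cytosine methyltransferase, and Med10, a subunit of Mediator, overlapped in every comparison, and Tent4a, an RNA tailing enzyme, was above all AngII libraries in CDH16KO-AngII by a log2 fold change of 0.12. Habp4, an RNA-binding protein, was at 43.5 to 57.9 CPM in CDH16KO-AngII, 62.5 to 67.9 CPM in AngII and 69.9 to 84.3 CPM in GRPR-AngII.

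The Iroquois homeobox factors Irx1 and Irx2 moved with each other inside CDH16KO-AngII. Irx1 was at 45.8, 15.5 and 31.9 CPM there, and Irx2 at 42.2, 14.2 and 33.4 CPM. Library 2 was the lowest for both, while the AngII libraries stood at 23.9 to 45.9 CPM for Irx1 and 24.5 to 25.97 CPM for Irx2. The summed loop of Henle and distal tubule markers were 4445, 3264 and 4934 CPM in the same CDH16KO-AngII libraries, and the collecting duct markers 748, 225 and 343 CPM. The part of these markers in the Irx values was not tested.

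Other members held one level throughout. Exoc3, a subunit of the exocyst, ranged from 30.0 to 35.7 CPM over all 9 libraries, a range of 0.25 on the log2 scale. Prxl2c, Erap1, Med10 and the potassium-chloride cotransporter gene Slc12a7 followed, with ranges of 0.34 to 0.42. The median range over the 58 genes was 0.85, against 0.73 over all genes tested. In the heat map the steady genes are the pale bands between a handful of coloured ones.

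**Figure D3:**
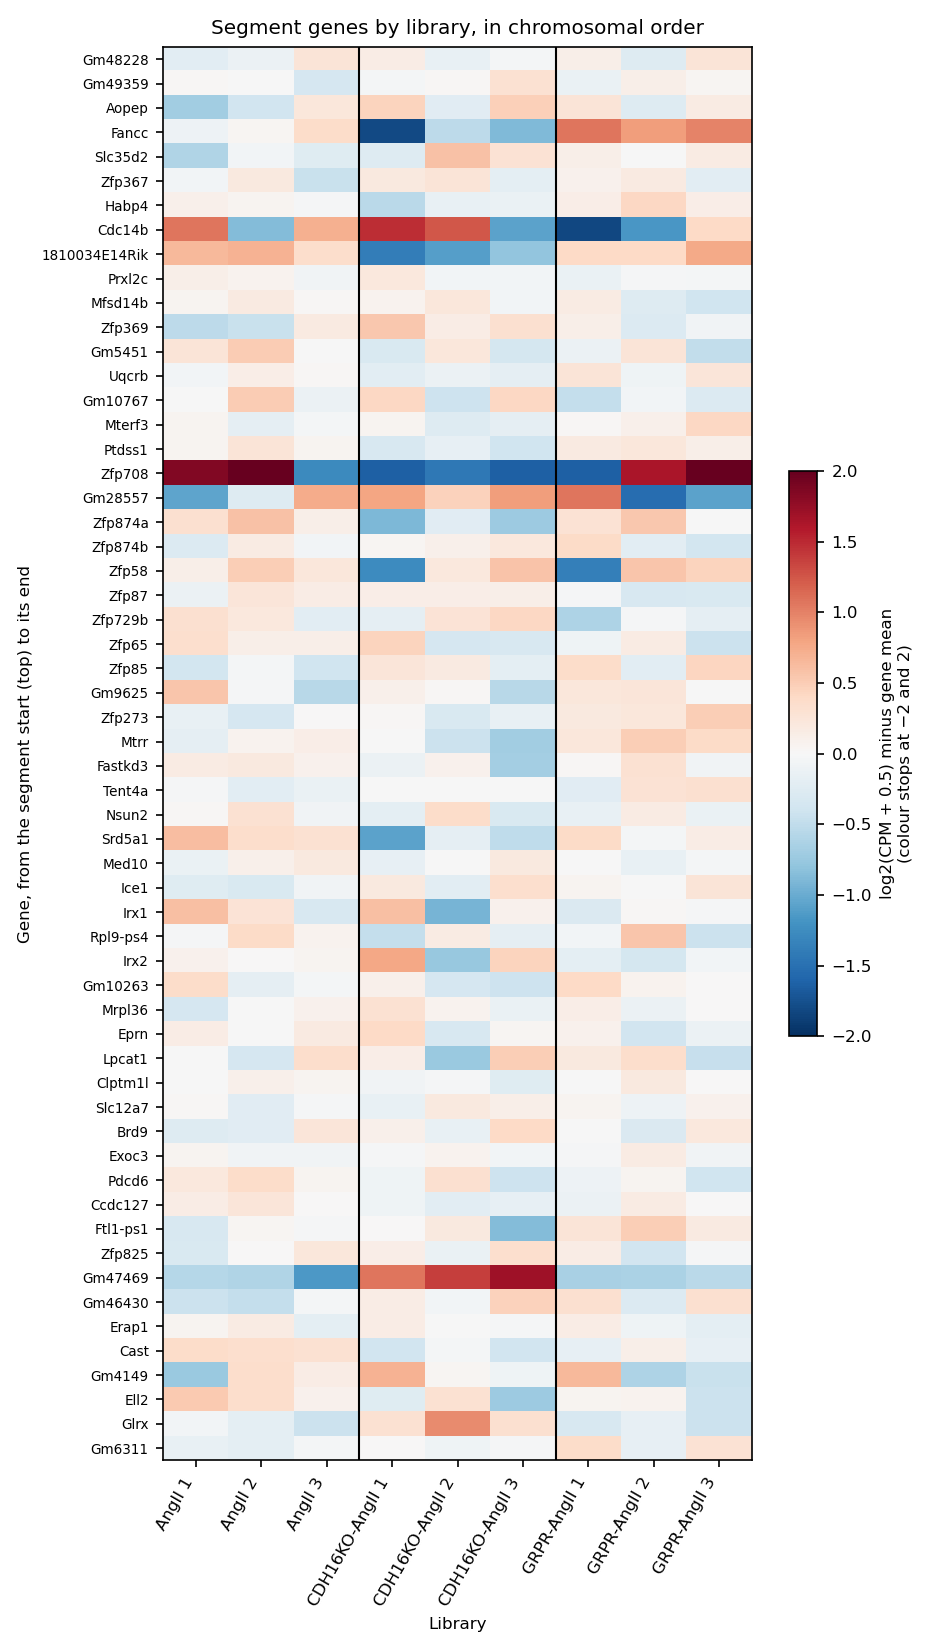
Log2(CPM + 0.5) of the 58 segment genes minus each gene's mean (colour, stopping at −2 and 2), with genes in chromosomal order from top to bottom and the 9 libraries from left to right in their groups. 1810034E14Rik and Gm47469 change colour with CDH16KO-AngII, whereas Cdc14b, Zfp708, Gm28557 and Zfp58 change colour within groups.

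The GRPR-AngII libraries were compared with AngII and with CDH16KO-AngII in the same fit, so the 3 comparisons share libraries and are given side by side. Against AngII, 0 of the 58 genes were called, and 0% of all 12507 genes were. Libraries did not overlap for 10 of the 58 (17.2%), 7 higher and 3 lower in GRPR-AngII, where the share was 14% over all genes (6.85% higher and 7.2% lower). An unadjusted p under 0.05 was found for 3 of the 58 by edgeR and for 6.74% of all genes. DESeq2 called 0 of the 58, from which nothing is read, since its number over all genes is not given here. The 10 genes were Fancc, Slc35d2, Habp4, Zfp273, Mtrr, Ice1 and Ftl1-ps1 above AngII and Irx2, Cast and Ell2 below. Fancc and Zfp273 passed the FPKM filter only through GRPR-AngII, so the filter favoured their being higher there. The share of the 58 is near that of all genes, and nothing is read from it. Slc35d2, a nucleotide sugar transporter, had a log2 fold change of 0.38, Ice1, of the little elongation complex, 0.31, and Ell2, an elongation factor, −0.42.

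Against CDH16KO-AngII, edgeR called 2 of the 58 genes, 1810034E14Rik higher and Gm47469 lower in GRPR-AngII, and 0.144% of all genes (0.056% higher and 0.088% lower). Libraries did not overlap for 14 of the 58 (24.1%), 10 higher and 4 lower in GRPR-AngII, where the share was 9.96% over all genes (4.66% higher and 5.3% lower) and 15.3% over the other chromosome 13 genes. An unadjusted p under 0.05 by edgeR was found for 12 of the 58 (20.7%), for 6.24% of all genes, for 13.3% of the other chromosome 13 genes and for 28.6% of the 14 genes after the segment. The 4 lower were Gm47469, Glrx and the zinc finger genes Zfp369 and Zfp87. Gm47469, and Fancc and Zfp273 among the 10 higher, passed the FPKM filter only through the group where they are high. Both calls were lost without any 1 of the GRPR-AngII libraries and without CDH16KO-AngII library 3 (edgeR adjusted p from 0.0513 to 0.124).

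The 12 members with a Zfp symbol were not called in any comparison. Apart from Zfp708, their log2 fold changes ran from −1.01 to 0.58 in CDH16KO-AngII and from −0.41 to 0.57 in GRPR-AngII against AngII, with medians of 0.07 and −0.07. The 216 tested Zfp genes outside chromosome 13 had 0 calls and medians of 0.12 and 0.01. Of 8 genes of the co-repressor machinery (Trim28, Setdb1, Cbx1, Cbx3, Cbx5, Chd3, Chd4 and Morc3), 0 were called in either direction in any comparison, and their log2 fold changes lay between −0.27 and 0.25. Trim28 was at 64.7 ± 3.78 CPM in AngII, 67.7 ± 8.11 CPM in CDH16KO-AngII and 65.2 ± 4.70 CPM in GRPR-AngII (SD, n = 3).

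Zfp874a and Zfp708 were the zinc finger genes with every CDH16KO-AngII library under the lowest of AngII. Zfp874a stood at 9.45, 11.6 and 8.22 CPM in AngII, 3.81, 6.34 and 4.34 CPM in CDH16KO-AngII and 9.27, 11.2 and 7.42 CPM in GRPR-AngII. The CDH16KO-AngII libraries lay below both other groups, with log2 fold changes of −1.01 against AngII (SE 0.25, edgeR adjusted p = 0.215) and of 0.94 for GRPR-AngII against it (SE 0.25, edgeR adjusted p = 0.282). Zfp874b, whose transcript shares 24.7% of the Zfp874a transcript and whose start carries nearly the same letters, ranged from 6.30 to 10.9 CPM with overlapping groups. Zfp273 was highest in GRPR-AngII, at 4.91, 5.003 and 6.16 CPM against 3.25 to 4.24 CPM in AngII. It passed the FPKM filter only through its 3 GRPR-AngII libraries, so it became a member through the group where it is high. Zfp85, Zfp729b, Zfp65 and Zfp825 had overlapping libraries in all 3 comparisons.

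Zfp58 stepped between libraries without regard to group. Its CPM was 4.22, 5.60 and 4.601 in AngII, 1.31, 4.56 and 5.98 in CDH16KO-AngII and 1.19, 5.89 and 5.44 in GRPR-AngII. Library 1 of both Cre-positive groups was low, and the other 7 libraries lay between 4.22 and 5.98 CPM. Zfp58 shares 51.2% of its transcript with Gm26965, which the deposited table does not list. Whether reads of the shared stretch were assigned elsewhere therefore cannot be seen here.

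Zfp708 took the widest step of the segment. Its counts were 285, 304 and 6 in AngII, 0, 4 and 0 in CDH16KO-AngII and 0, 267 and 274 in GRPR-AngII. A count of 0 allows up to 3 counts, by counting error alone. The counts of Gm28557, a predicted gene that ends at the same base (its 3′ end) and contains the whole Zfp708 transcript, ran the other way, at 89, 166 and 295 in AngII, 367, 308 and 340 in CDH16KO-AngII and 429, 63 and 69 in GRPR-AngII. Libraries high in Zfp708 were thus low in Gm28557.

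Added together, the Zfp708 and Gm28557 models stood at 5.31 to 8.84 CPM, a mean of 7.08 ± 1.21 CPM (SD, n = 9). Zfp708 took 76.2%, 64.7% and 1.99% of their summed counts in AngII, 0%, 1.28% and 0% in CDH16KO-AngII and 0%, 80.9% and 79.9% in GRPR-AngII. With both models summed to 1 gene, chosen after seeing the data, the log2 fold change was −0.18 in CDH16KO-AngII (SE 0.23, edgeR adjusted p = 0.822) and −0.05 in GRPR-AngII (SE 0.23, edgeR adjusted p = 0.972) against AngII. A fold change of Zfp708 alone is not given, since libraries at or near 0 leave it unbounded. The 2 models share 2537 exon bases on the same strand, 96.4% of those of Zfp708.

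A like split was found outside the segment in Nnt, the mitochondrial transhydrogenase gene on the same chromosome, which is known to carry a deletion in some C57BL/6 substrains. Its second annotated model took 93.5%, 95.8% and 0% of the summed counts in AngII, 34.1%, 44.0% and 0% in CDH16KO-AngII and 0%, 19.8% and 0% in GRPR-AngII. Of the 4 libraries at 0% for Nnt, 3 (AngII 3, CDH16KO-AngII 3 and GRPR-AngII 1) were also at or near 0% for Zfp708, and GRPR-AngII 3 was at 79.9% for Zfp708. CDH16KO-AngII libraries 1 and 2 were at or near 0% for Zfp708 and at 34.1% and 44.0% for Nnt. Whether the mice differ in strain along the chromosome was not tested, and the files hold no genotypes.

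**Figure D4:**
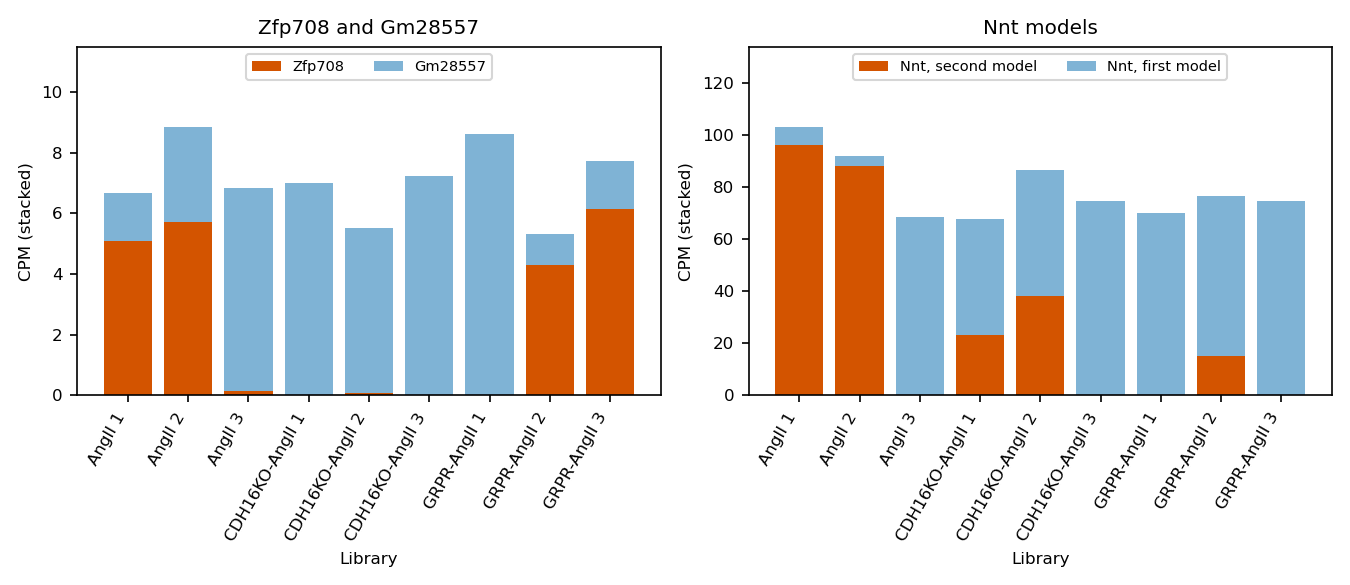
Stacked CPM of overlapping gene models in each of the 9 libraries, Zfp708 with Gm28557 (left) and the 2 annotated Nnt models (right). The stacked height of Zfp708 and Gm28557 stays between 5.31 and 8.84 CPM while the orange part is near 0 in 5 libraries, and the orange part of Nnt is 0 in 4 libraries, 3 of them among those 5.

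To describe steps irrespective of group, the 9 values of log2(CPM + 0.5) of each gene were sorted and the largest gap between neighbours was taken. A gap of at least 2-fold was found in 5 of the 58 genes (8.62%), against 2.18% of all genes tested. The share was 2.04% (8 genes) on the rest of chromosome 13, 1.11% of the 90 genes in the 14 Mb before the segment, 0% of the 14 genes in the 14 Mb after it, and 2.15% on other chromosomes. Nothing is read from these contrasts, as the interval was drawn with the differences known. The 5 were Zfp708, Gm47469, Zfp58, Cdc14b and 1810034E14Rik, with gaps of 2.91, 1.61, 1.38, 1.27 and 1.14 on the log2 scale. Zfp708, Gm47469 and Cdc14b reached an FPKM of 1 only in libraries above their gap, and so passed the filter through those libraries alone. All 5 have values near or under 4 CPM in their low libraries, where the added 0.5 weighs. With log2(CPM + 2) in its place, 2 genes had a gap of that size. The share over all genes was not computed with that setting, so the 2 genes have nothing to be set against. A gap of at least 1.5-fold was found in 9 of the 58 (15.5%) and in 7.24% of all genes.

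The 5 genes did not divide the libraries in one way. 1810034E14Rik and Gm47469 both set CDH16KO-AngII apart, in opposite directions. Cdc14b was low in AngII 2, CDH16KO-AngII 3, GRPR-AngII 1 and GRPR-AngII 2, Zfp58 in CDH16KO-AngII 1 and GRPR-AngII 1, and Zfp708 in AngII 3, GRPR-AngII 1 and all CDH16KO-AngII libraries. GRPR-AngII library 1 lay below the gap in 4 of the 5, more often than any other library. Counting each gene's lowest library over all 58 genes, CDH16KO-AngII library 3 came first with 10 genes and CDH16KO-AngII library 1 next with 9, and the former was also the highest library for 11 genes.

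**Figure D5:**
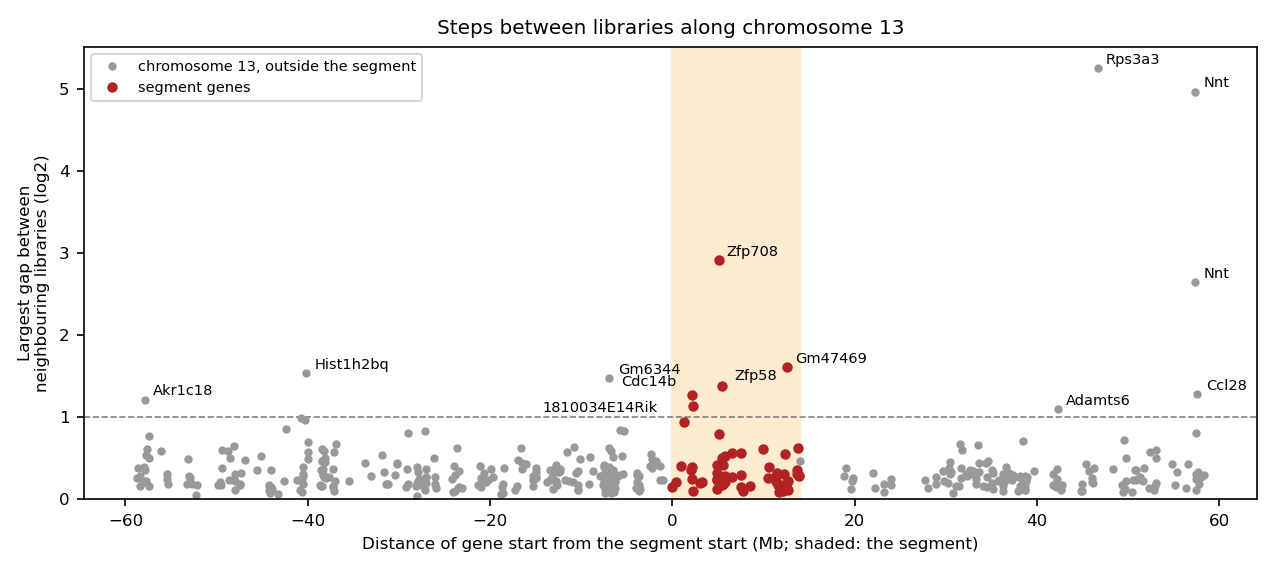
Largest gap between neighbouring libraries on the log2(CPM + 0.5) scale (vertical axis) for tested genes of chromosome 13, by distance of the gene start from the segment start in Mb (horizontal axis). Red points are the 58 segment genes within the shaded 14 Mb, grey points the other genes, and the dashed line marks a 2-fold gap, passed by 5 segment genes and 8 others.

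The genes next to each edge of the interval are too few to tell whether the values change there by a step. The last genes before it, Gm48583 and Ctla2a, had log2 fold changes of −0.74 and −0.38 in CDH16KO-AngII against AngII, and the first inside, Gm48228 and Gm49359, 0.01 and 0.23. The last inside, Glrx and Gm6311, had 0.78 and 0.09, and the first after it, Rfesd and Arsk, 0.42 and 0.71. Arsk, an arylsulfatase gene outside the interval, stood at 20.5, 21.2 and 24.5 CPM in CDH16KO-AngII and at 12.4 to 14.7 CPM in the other 6 libraries.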

How the data were processed

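The deposited table gave, per the file headers, a count and an FPKM value for every gene in every library, and no column belonged to another series. The counts deposited by the authors are whole numbers, and the deposited FPKM values are the same fragments scaled by length and depth. The value 4 was more frequent than 3 and 5 in every library (799 genes against 631 and 318 in AngII library 1), so the counts may be rounded estimates; they were tested as counts. The submitters' processing notes name the builds GRCm38 and mm10. Aligner, counter and strand setting were not given in the sources used here.

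Counts were fitted with edgeR 4.0.16 in R 4.3.3 (TMM scaling, quasi-likelihood test, 9 libraries in 1 fit, no block) on the 12507 genes with FPKM of at least 1 in 3 libraries. Standard errors were derived from each F statistic. Limma 3.58.1, DESeq2 1.42.0, other filters and scalings and leaving out each library were alternatives. The test was also run on simulated data, but the outcome is not given here and nothing is read from it. Libraries of 1 group differed far beyond sampling noise (chi-square per gene of 74.2 to 366), so none was counted as a copy.

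All 58 members matched GENCODE M21, 49 with the same start and end. Shared sequence was searched with BLAST+ 2.17.0 (95% identity), where 15 members shared at least 50% of their longest transcript with another gene and 22 overlapped exons on the opposite strand. Promoter windows are from RefSeq. Figures were drawn with matplotlib 3.10.9. Named genes were the called genes, the 8 largest differences in each direction per comparison, genes with a 2-fold gap, the 5 steadiest and the edge genes; other members named to describe a role group fall outside that rule. Members, lists and rules were chosen with earlier results of these data known.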

Additional observations from a re-analysis of the deposited data

How the results depend on the processing

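The number of segment genes called in CDH16KO-AngII against AngII was 2 in most settings. It was 7 by DESeq2, which called 210 of all genes, and 1 with an FPKM of at least 2, which left 38 members. Leaving out 1 library gave 0 to 2, with 0 without AngII library 1 or 2 and 1 without CDH16KO-AngII library 3. In GRPR-AngII against AngII it was 0 in every setting run, DESeq2 included, and the share over all genes is given above for the main fit only. In GRPR-AngII against CDH16KO-AngII it was 2, and 6 by DESeq2 (175 of all genes), 1 with an FPKM of at least 2, 1 by limma on log2(FPKM + 0.1), 1 in a fit of those groups only and 1 with the replicate block. Leaving out 1 library gave 0 to 3. Where the number called over all genes is not given here beside a setting, nothing is read from its count of members. The cause of the differences between settings was not tested, other than the fewer members or libraries of some settings. DESeq2 added Glrx, Fancc, Zfp874a, Srd5a1 and Cast against AngII, and Fancc, Zfp874a and Glrx among the calls between the Cre-positive groups. Fancc was also called there with no FPKM filter and without CDH16KO-AngII library 1 or 2. The 2-fold gap was found in 5 genes, in 2 with log2(CPM + 2) and in 1 with an FPKM of at least 2. A 1.5-fold gap was found in 9 (7.24% of all genes), and leaving out 1 library gave 5 to 6 with the 2-fold gap. The share over all genes was computed only for the main setting and the 1.5-fold gap. No named log2 fold change past the threshold reversed. The replicate block left the count against AngII at 2 and ended the call of Gm47469 between the Cre-positive groups (edgeR adjusted p = 0.072). Same-numbered libraries correlated in their deviations at −0.12 to 0.30, over 0.1 in 6 of 9 pairs (numbers 2 and 3, not 1), and the best match in another group had the same number in 13 of 18 cases. The labels tie the numbers to nothing, so pairing by number was not established. Genes with few counts, such as Gm47469, are limited by depth.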

Other observations

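Outside the segment, 8 tested genes of chromosome 13 had a gap of at least 2-fold between neighbouring libraries. Rps3a3 (gap 5.25 on the log2 scale) and Ccl28 (gap 1.28) were above the gap in CDH16KO-AngII libraries 2 and 3 and below it in the other 7 libraries. Adamts6 (gap 1.10) was below it in the same CDH16KO-AngII libraries 2 and 3. Akr1c18 (gap 1.21) was low in CDH16KO-AngII library 2 alone and Gm6344 (gap 1.48) in AngII library 1 alone. Hist1h2bq (gap 1.53) was above the gap in all 3 CDH16KO-AngII libraries. The remaining 2 were the Nnt models. Within the segment, 188 listed genes fell below the FPKM filter, 19 of them with Zfp symbols, and 10 reached an FPKM of 1 in 1 or 2 libraries.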
